A study of Rattus norvegicus with 20 samples.

Results

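The genes described here make up a set of 36 named cell cycle and DNA replication genes. They were found in the deposited table by gene symbol, and 34 of the 36 names were present among its 32883 genes. Ccnb2 and E2f1 were not analysed here. The set was ordered by role into 14 genes of DNA synthesis, 11 of mitosis, 7 of G1 control and 2 inhibitors of cyclin-dependent kinases (CDKs).

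RNA came from the livers of 20 male rats, 5 in each of 4 treatment groups, with 1 library per rat. The group named CON was given CMC-Na, a cellulose vehicle, at 0.5%. The group named BGZ_L was given BGZ_L powder at a dose of 0.9 g/kg, the group named KYDS hydrocortisone at 25 mg/kg, and the group named KYDS+BGZ_L both agents at these doses. Hydrocortisone is a glucocorticoid, and the series title names Psoraleae Fructus, a fruit used in Chinese medicine, and rats with kidney-yang deficiency syndrome. The sources used here do not give strain, age, route or length of treatment.

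A cell enters the cycle when D-type cyclins with CDK4 release E2F factors from the retinoblastoma protein, and E2F factors then switch on genes for cyclin E and for DNA synthesis. Replication starts where the MCM helicase has been loaded on DNA, and mitotic genes rise later under another promoter program. Adult hepatocytes are mostly quiescent and re-enter the cycle after injury or loss of liver mass.

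Values are TPM, a transcript level corrected for gene length, after scaling between libraries, and are called scaled TPM. The deposited values had 2 decimals. Since TPM holds no total of reads, sequencing depth is not known here, and a gene listed at 0 has no upper limit. Differences are log2 of scaled TPM plus 0.5, ± SE, from 1 limma model over the 20 libraries, and a gene was called when its limma p, adjusted over all genes tested, was below 0.05. The p-values measure the spread between rats. In whole liver, fewer cells of a type and less RNA per cell cannot be told apart.

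Most of the cell cycle genes had a mean below 1 scaled TPM over the 20 libraries, and so had most genes of the table. That mean was reached by 11 of the 34 genes (32.4%), beside 29.5% of all genes. The median of the 34 means was 0.429 scaled TPM, beside 0.0257 for all genes in the table. None of the 11 mitotic genes reached a mean of 1 scaled TPM, and 10 of those 11 were listed at 0 in at least 1 library. The means ran from 0.0157 for Rrm2, the small subunit of ribonucleotide reductase, to 5.14 for Tyms, the thymidylate synthase. For testing, a gene had to reach 0.5 scaled TPM in 5 or more libraries, and 19 of the 34 genes did, 8 of DNA synthesis, 3 of mitosis, 6 of G1 control and both CDK inhibitors. The other 15 did not, and their levels are given without a test.

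**Figure D1:**
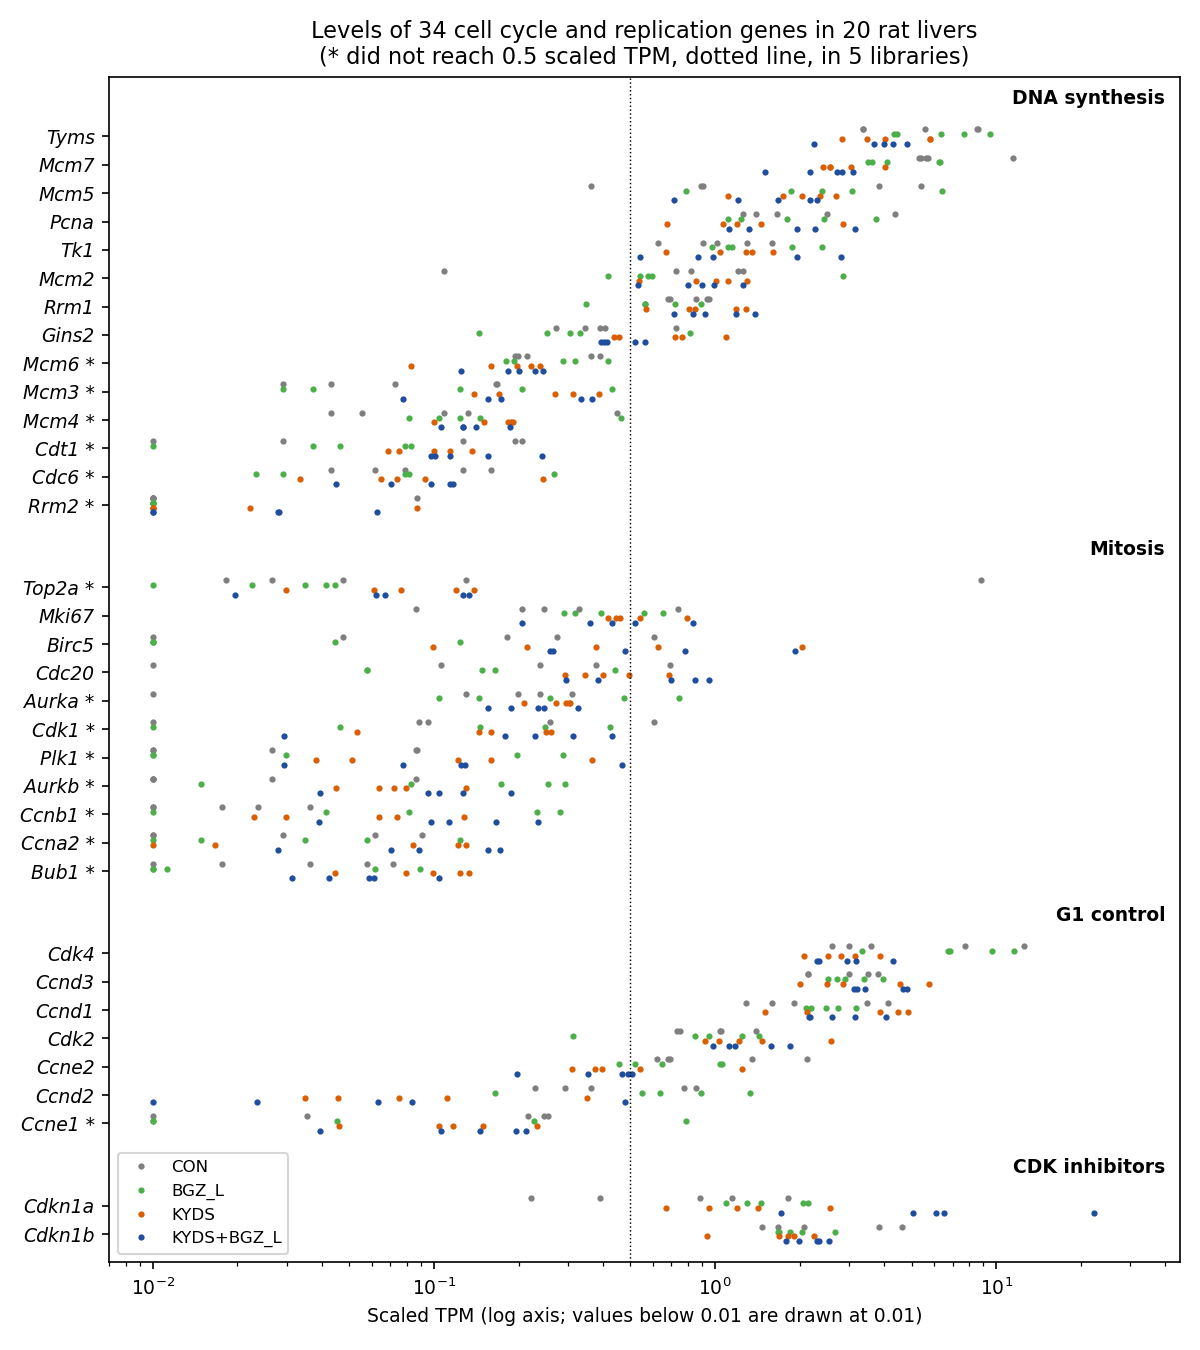
Scaled TPM (log axis) of 34 cell cycle and replication genes in each of 20 rat livers, with 1 point per library coloured by treatment group. Genes are ordered by mean level within their role, and the mitotic genes lie mostly to the left of the dotted line at 0.5 scaled TPM.

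Of the 19 tested genes, 1 was called with hydrocortisone alone and 6 with hydrocortisone in rats given BGZ_L, 3 lower and 3 higher. With hydrocortisone alone (KYDS against CON), limma called 1 of 19, Mcm7, which was lower. Over all 11869 genes tested, 6.27% were called in that comparison, 3.25% higher and 3.02% lower. With hydrocortisone in rats given BGZ_L (KYDS+BGZ_L against BGZ_L), limma called 6 of 19, and the background over all genes was 17.4%, 8.82% higher and 8.55% lower. Mcm7, Cdk4 and Ccnd2 were lower, and Cdc20, Birc5 and Cdkn1a were higher. A gene that reached the testing level only in the groups where it was high had to differ, so these counts do not stand for all 34 genes. With no testing level, limma called 1 of 34 for KYDS against CON (background 1.85%) and 3 of 34, namely Mcm7, Ccnd2 and Cdkn1a, for KYDS+BGZ_L against BGZ_L (background 8.21%). The median log2 difference of the 34 genes was then 0.10 and 0.07 in these comparisons, and that of all 19797 genes with a value was 0 in both. The 2 comparisons share no library, but they share the model's estimate of the spread.

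**Figure D2:**
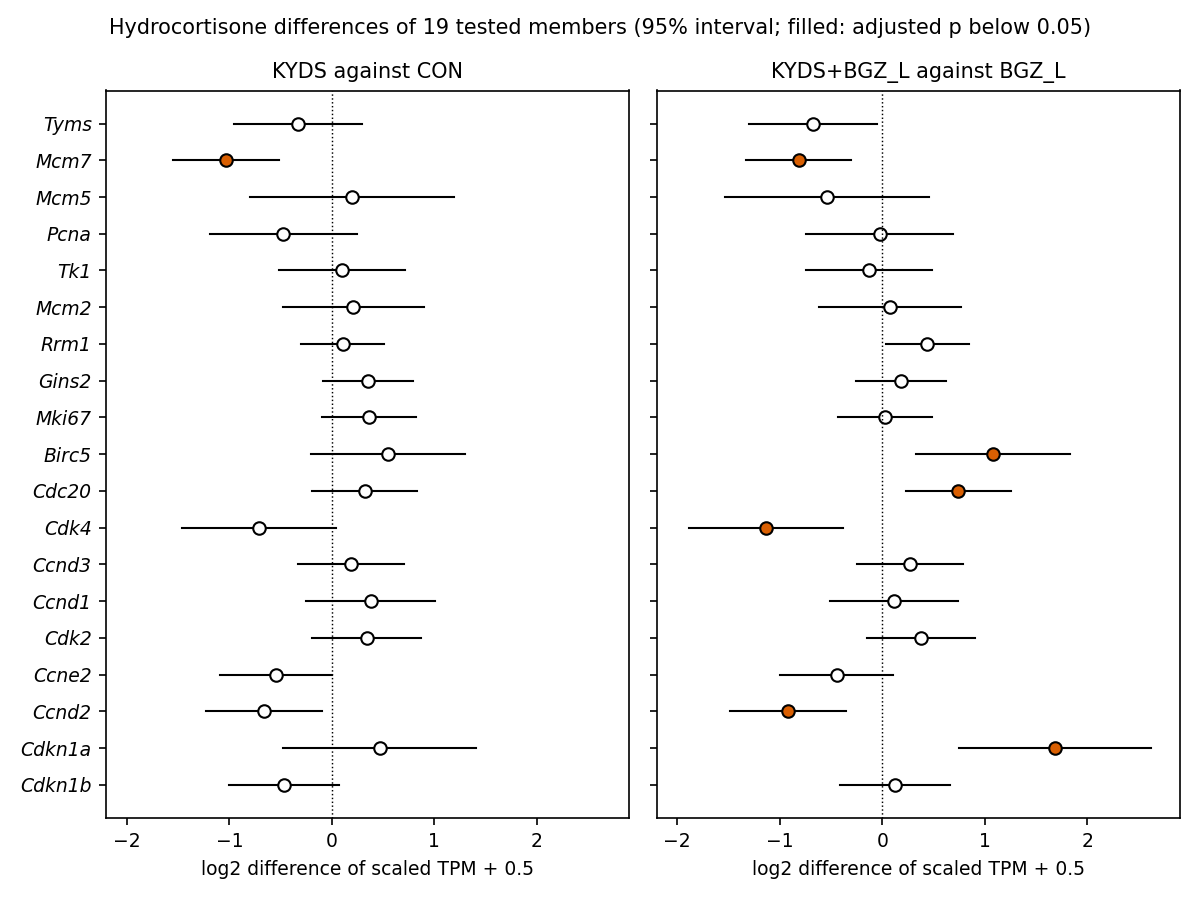
Log2 differences of scaled TPM + 0.5 for the 19 tested genes, with 95% intervals, for KYDS against CON (left) and KYDS+BGZ_L against BGZ_L (right). Filled points passed the threshold, 1 on the left and 6 on the right; without scaling, Mcm7 on the left turned to 0.19.

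The levels behind these differences depend on how libraries were scaled. Leaving out the scaling moved the median log2 difference of all genes from 0.05 to 1.03 for KYDS against CON and from 0.06 to 0.63 for KYDS+BGZ_L against BGZ_L. The 386 higher and 358 lower genes of KYDS against CON then became 5867 higher and 66 lower, and the 1047 and 1015 genes of KYDS+BGZ_L against BGZ_L became 1809 and 233. Among the members, limma then called 11 of 18 tested for KYDS against CON, all higher, beside 5933 of 12168 genes. The 11 were Mcm2, Gins2, Rrm1, Tk1, Mki67, Cdc20, Birc5, Cdk2, Ccnd1, Ccnd3 and Cdkn1a. Unless said otherwise, directions and calls below are those with scaling, relative to the scaled middle of all genes.

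Among genes of DNA synthesis, Mcm7 was the one called. It encodes a subunit of the MCM helicase that unwinds DNA at the fork. In scaled TPM it stood at 5.64, 11.5, 5.74, 5.32 and 5.41 in the 5 CON livers and at 2.57, 4.03, 2.43, 3.04 and 2.56 in the 5 KYDS livers. In the BGZ_L livers it stood at 3.63, 4.09, 6.28, 6.32 and 3.51, and in the KYDS+BGZ_L livers at 2.17, 3.11, 2.71, 1.51 and 2.83. Every hydrocortisone liver lay below every liver of its comparison group. Groups that do not overlap occurred in 6.49% of all genes for KYDS against CON and in 13.2% for KYDS+BGZ_L against BGZ_L; among the 19 genes they occurred in 1 (Mcm7) and in 2 (Mcm7 and Birc5). Mcm7 fell by 1.03 ± 0.25 log2 in KYDS against CON (limma adjusted p = 0.0222). In KYDS+BGZ_L against BGZ_L it fell by 0.82 ± 0.25 (limma adjusted p = 0.0279). Without scaling the log2 differences were 0.19 and -0.11, and neither was called. CON 2, the highest library, has the lowest scaling factor of the 20, and without CON 2 the limma adjusted p of KYDS against CON was 0.0628. That call was also lost without KYDS 3 or KYDS 5, and the call in KYDS+BGZ_L against BGZ_L was lost without BGZ_L 3, BGZ_L 4, KYDS+BGZ_L 1 or KYDS+BGZ_L 4, with limma adjusted p up to 0.0908.

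The promoter of Mcm7 is shown because E2F words are the known mark of replication genes. RefSeq (build GRCr8) places it at chr12:22163129-22163428 on the minus strand, from 250 bases before the annotated start to 50 after it, and capitals mark E2F and CCAAT words.
Mcm7: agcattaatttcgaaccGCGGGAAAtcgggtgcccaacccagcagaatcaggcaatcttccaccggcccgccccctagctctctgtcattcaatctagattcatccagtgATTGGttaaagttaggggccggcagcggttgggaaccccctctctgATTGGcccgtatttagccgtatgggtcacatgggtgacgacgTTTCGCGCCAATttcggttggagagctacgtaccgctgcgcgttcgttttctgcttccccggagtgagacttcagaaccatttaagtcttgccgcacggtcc
It holds an E2F word at -233 and another at -52, counted from the start, and the word at -52 overlaps the CCAAT box at -45. The E2F words searched on both strands were TTTCCCGC, TTTCGCGC, TTTGCCGC and TTTGGCGC. At least 1 of them was present in 7 of the 11 DNA synthesis genes that had a RefSeq promoter entry (63.6%), in 1 of 9 mitotic genes (Cdk1) and in 2.25% of all 27457 promoters of this length. The CCAAT box was present in 17 of 26 members with an entry (65.4%) and in 37.7% of all promoters. A match describes the letters and does not show a bound site.

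The 6 subunits of the MCM helicase, which act as 1 ring, were measured at unequal levels. Their mean scaled TPM over 20 libraries was 4.22 for Mcm7, 2.20 for Mcm5, 0.920 for Mcm2, 0.232 for Mcm6, 0.184 for Mcm3 and 0.160 for Mcm4. Mcm7 had 26.3 times the level of Mcm4, and it exceeded Mcm2, Mcm3, Mcm4 and Mcm6 in 20 of 20 libraries and Mcm5 in 17. In RefSeq, the Mcm7 gene overlaps Mir25, Mir93 and Mir106b and has 1 named pseudogene. The sources used here do not say how the authors assigned reads to overlapping or copied genes.

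Tyms, which makes the thymidine nucleotide, had the highest mean level of the 34 genes. Its scaled TPM was 8.52, 3.37, 8.62, 3.36 and 5.58 in CON and 5.81, 5.80, 2.82, 3.47 and 4.01 in KYDS. In BGZ_L livers it was 7.70, 6.36, 4.34, 4.45 and 9.55, and in KYDS+BGZ_L livers 2.24, 4.81, 4.31, 3.98 and 3.66. The groups overlapped in both comparisons. The log2 difference was -0.33 ± 0.30 for KYDS against CON (limma adjusted p = 0.523) and -0.67 ± 0.30 for KYDS+BGZ_L against BGZ_L (limma adjusted p = 0.125), and without scaling the values were 0.85 and 0.06.

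Pcna, the sliding clamp of the polymerases, was not called either. It stood at 1.40, 2.51, 4.38, 1.66 and 1.25 scaled TPM in CON, at 1.24, 3.74, 2.43, 1.11 and 1.80 in BGZ_L, at 1.07, 0.676, 2.85, 1.20 and 1.46 in KYDS and at 2.26, 1.12, 1.32, 3.15 and 1.95 in KYDS+BGZ_L. All 4 groups overlapped. The log2 difference was -0.47 ± 0.34 in KYDS against CON (limma adjusted p = 0.414, 95% interval -1.19 to 0.24) and -0.03 ± 0.34 in KYDS+BGZ_L against BGZ_L (limma adjusted p = 0.968, 95% interval -0.74 to 0.69); without scaling these were 0.53 and 0.62.

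The other tested genes of DNA synthesis were Mcm2, Mcm5, Gins2 (a partner of the MCM helicase), Rrm1 (the large subunit of ribonucleotide reductase) and Tk1 (thymidine kinase). With scaling, none of them was called in any of the 5 comparisons. Their means over 20 libraries were 0.920, 2.20, 0.487, 0.848 and 1.30 scaled TPM. Rrm1 had an unadjusted limma p of 0.0363 in KYDS+BGZ_L against BGZ_L, with an adjusted p of 0.125. The licensing factors Cdc6 and Cdt1, which load the helicase, did not reach the testing level and had means of 0.0952 and 0.10. Rrm2 was listed at 0 in 14 of 20 libraries and was no higher than 0.0868 in any.

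Mitotic genes had low levels, with means over the 20 libraries from 0.0562 to 0.503 scaled TPM. The mean of 0.503 was that of Top2a, which stood at 8.85 in 1 CON liver and had a median of 0.0543. In KYDS+BGZ_L against BGZ_L, limma called 2 of the 3 mitotic genes that reached the testing level, Cdc20 and Birc5, beside 17.4% of all genes tested. Both reached it in exactly 5 libraries, none of them a BGZ_L liver, so the testing level itself favoured a difference from BGZ_L and the count is no support for one. With no testing level, limma called 0 of the 11 mitotic genes, beside 8.21% of all genes. An unadjusted limma p under 0.05 was found for 2 of the 11, beside 4499 of all 19797 genes. Cdc20 encodes an activator of the anaphase-promoting complex. Its scaled TPM was 0.165, 0.0580, 0.0579, 0.149 and 0.439 in BGZ_L livers and 0.849, 0.294, 0.384, 0.698 and 0.953 in KYDS+BGZ_L livers. It was 0.106, 0.691, 0.376, 0.238 and 0 in CON and 0.689, 0.293, 0.398, 0.343 and 0.494 in KYDS. In the called comparison, 1 BGZ_L liver lay above the lowest 2 of the KYDS+BGZ_L livers, so the groups overlap. Cdc20 rose by 0.74 ± 0.25 log2 (limma adjusted p = 0.0432), with 3 of its 5 libraries at the testing level being KYDS+BGZ_L livers. With no testing level its limma adjusted p was 0.0543. For KYDS against CON the log2 difference was 0.32 ± 0.25 (limma adjusted p = 0.443). Without scaling it was 0.91 and called (limma adjusted p = 0.016).

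Birc5 encodes survivin, a subunit of the chromosomal passenger complex that also inhibits apoptosis. It was listed at 0 in 3 BGZ_L livers and stood at 0.0446 and 0.124 scaled TPM in the other 2. In KYDS+BGZ_L livers it was 1.93, 0.784, 0.260, 0.480 and 0.266, all above the BGZ_L livers. CON livers held 0, 0.605, 0.275, 0.0475 and 0.182, and KYDS livers 0.376, 0.0995, 0.625, 0.214 and 2.05, which overlap. Birc5 rose by 1.08 ± 0.36 log2 in KYDS+BGZ_L against BGZ_L (limma adjusted p = 0.0444), and the value was 0.55 ± 0.36 in KYDS against CON (limma adjusted p = 0.363). With no testing level its limma adjusted p was 0.0698. Without scaling, Birc5 in KYDS against CON was at 1.17 and called (limma adjusted p = 0.0231). Left out singly, each of BGZ_L 1, 2, 3 and 4 ended both calls, KYDS 2 and KYDS 5 that of Cdc20, and BGZ_L 5, KYDS 1 and KYDS+BGZ_L 4 that of Birc5, with limma adjusted p up to 0.097 for Cdc20 and 0.0818 for Birc5. In further fits a gene no longer reached the testing level and had no test, namely Cdc20 without KYDS 1 or without KYDS+BGZ_L 1, 4 or 5, and Birc5 without KYDS 3, KYDS 5, KYDS+BGZ_L 1 or KYDS+BGZ_L 2. Of the 20 fits, Cdc20 was called in 10 and Birc5 in 9.

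The promoters of Cdc20 and Birc5 are shown because these were the mitotic genes called, and the CHR word TTTGAA is the known mark of mitotic promoters. RefSeq (build GRCr8) gives chr5:137255750-137256049 on the minus strand for Cdc20 and chr10:103571896-103572195 on the plus strand for Birc5, and capitals mark CHR and CCAAT words.
Cdc20: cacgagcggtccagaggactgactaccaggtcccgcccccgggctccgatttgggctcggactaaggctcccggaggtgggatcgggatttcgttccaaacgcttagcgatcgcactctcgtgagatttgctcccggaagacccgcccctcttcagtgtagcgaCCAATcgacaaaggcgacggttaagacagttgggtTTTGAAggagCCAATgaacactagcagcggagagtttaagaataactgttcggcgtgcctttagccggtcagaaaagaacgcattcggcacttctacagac
Birc5: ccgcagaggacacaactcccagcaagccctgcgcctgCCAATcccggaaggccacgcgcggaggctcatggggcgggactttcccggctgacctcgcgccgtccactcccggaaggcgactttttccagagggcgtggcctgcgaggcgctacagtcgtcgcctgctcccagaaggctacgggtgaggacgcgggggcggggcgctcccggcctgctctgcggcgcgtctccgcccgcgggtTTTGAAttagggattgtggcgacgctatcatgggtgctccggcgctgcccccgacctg
The CHR word begins at -51 in Cdc20, between CCAAT boxes at -86 and -41, and at -8 in Birc5. On either strand it was present in 6 of 9 mitotic genes with an entry (66.7%), in 1 of 11 DNA synthesis genes and in 18.1% of all promoters.

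With scaling, the proliferation marker Mki67 was not called in any of the 5 comparisons. Without scaling it was called higher in KYDS against CON, at 0.92 (limma adjusted p = 0.0146), when 5867 genes were called higher. Its scaled TPM was 0.247, 0.0864, 0.738, 0.206 and 0.327 in CON, 0.392, 0.290, 0.319, 0.558 and 0.653 in BGZ_L, 0.793, 0.457, 0.415, 0.542 and 0.444 in KYDS and 0.430, 0.206, 0.520, 0.360 and 0.836 in KYDS+BGZ_L. The ranges of all 4 groups overlapped. The log2 difference was 0.36 ± 0.22 for KYDS against CON (limma adjusted p = 0.322) and 0.03 ± 0.22 for KYDS+BGZ_L against BGZ_L (limma adjusted p = 0.95), which median-ratio scaling turned to -0.0032.

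Top2a, the topoisomerase that untangles chromosomes, stood apart in 1 liver. CON 3 held 8.85 scaled TPM, and the next CON liver held 0.130. The other CON livers held 0.0265, 0.0475 and 0.0182. BGZ_L livers held 0.0413, 0.0348, 0, 0.0446 and 0.0225, KYDS livers 0.139, 0.0298, 0.119, 0.0763 and 0.0610, and KYDS+BGZ_L livers 0.0670, 0.0196, 0.0624, 0.127 and 0.133. CON 3 was also the highest CON liver for Mki67 (0.738), Cdk1 (0.608) and the G1 gene Cdk4 (12.5). For the mitotic genes Cdc20 and Birc5 the highest CON liver was CON 2 (0.691 and 0.605). Neither Top2a nor Cdk1, the kinase that drives entry into mitosis, reached the testing level. Cdk1 stood at 0.0883, 0.259, 0.608, 0.0950 and 0 in CON, at 0.248, 0.0464, 0, 0.424 and 0.146 in BGZ_L, at 0.260, 0.144, 0.159, 0.0534 and 0.250 in KYDS and at 0.313, 0.0294, 0.229, 0.430 and 0.180 in KYDS+BGZ_L, with all groups overlapping. The remaining mitotic genes that did not reach it were Ccna2 and Ccnb1 (cyclins), Aurka, Aurkb and Plk1 (mitotic kinases) and Bub1 (a spindle checkpoint kinase), with means from 0.0562 to 0.257.

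In G1 control, Cdk4 and Ccnd2 were called, and both encode parts of the cyclin D kinase. Cdk4, the catalytic part, stood at 3.32, 11.6, 6.83, 6.76 and 9.66 scaled TPM in BGZ_L livers and at 4.30, 3.18, 2.94, 2.35 and 2.31 in KYDS+BGZ_L livers. BGZ_L 1 lay within the range of the KYDS+BGZ_L livers and the other 4 BGZ_L livers above it. CON livers held 3.59, 7.78, 12.5, 2.99 and 2.62, and KYDS livers 2.07, 2.52, 3.15, 3.87 and 2.81. Cdk4 fell by 1.14 ± 0.36 log2 in KYDS+BGZ_L against BGZ_L (limma adjusted p = 0.0356), and the value without scaling was -0.40, not called. For KYDS against CON the log2 difference was -0.71 ± 0.36 (limma adjusted p = 0.234), which turned to 0.48 without scaling. The call was lost without any one of BGZ_L 2, 3, 4 or 5 or KYDS+BGZ_L 3, 4 or 5, with limma adjusted p up to 0.0902. RefSeq lists Tspan31 as overlapping Cdk4 and names 4 Cdk4 pseudogenes.

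The Cdk4 promoter is shown because its letters differ from those of the genes above. RefSeq (build GRCr8) places it at chr7:64771203-64771502 on the plus strand. Capitals mark the E-box CACGTG, a word chosen after this promoter had been read.
Cdk4: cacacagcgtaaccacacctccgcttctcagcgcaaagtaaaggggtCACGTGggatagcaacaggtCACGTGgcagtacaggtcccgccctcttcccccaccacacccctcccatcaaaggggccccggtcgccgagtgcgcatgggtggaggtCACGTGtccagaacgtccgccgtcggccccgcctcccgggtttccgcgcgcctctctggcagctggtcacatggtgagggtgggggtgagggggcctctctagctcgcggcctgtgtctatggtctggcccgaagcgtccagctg
The E-box begins at -203, -183 and -95, and no E2F, CHR or CCAAT word was found. It was present in 2 of 26 members with an entry (7.69%, the other being Mcm2) and in 6.65% of all promoters.

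Ccnd2 encodes cyclin D2, a partner of CDK4. In scaled TPM it was 0.165, 0.638, 1.33, 0.892 and 0.552 in BGZ_L livers and 0.0838, 0, 0.478, 0.0635 and 0.0234 in KYDS+BGZ_L livers. In CON livers it was 0.291, 0.778, 0.854, 0.230 and 0.363, and in KYDS livers 0.0752, 0.0348, 0.0455, 0.351 and 0.111. In each hydrocortisone group 1 liver (KYDS 4 and KYDS+BGZ_L 3) reached the range of the comparison group. Ccnd2 fell by 0.92 ± 0.27 log2 in KYDS+BGZ_L against BGZ_L (limma adjusted p = 0.0256) and the value was -0.66 ± 0.27 in KYDS against CON (limma adjusted p = 0.143). The 6 libraries in which it reached 0.5 scaled TPM were 4 BGZ_L and 2 CON livers, and without scaling it did not reach the testing level. The call was lost without any one of BGZ_L 3 or 4 or KYDS+BGZ_L 1, 2, 4 or 5, with limma adjusted p up to 0.0754.

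The other D cyclins did not show this pattern at the threshold. Ccnd1, cyclin D1, stood at 3.48, 1.60, 4.11, 1.92 and 1.29 scaled TPM in CON and at 3.88, 2.13, 4.47, 1.51 and 4.84 in KYDS. It stood at 2.19, 3.17, 2.11, 2.49 and 2.75 in BGZ_L and at 4.07, 2.18, 2.60, 3.15 and 2.16 in KYDS+BGZ_L. Its log2 difference was 0.38 ± 0.30 for KYDS against CON (limma adjusted p = 0.463) and 0.11 ± 0.30 for KYDS+BGZ_L against BGZ_L (limma adjusted p = 0.828). Without scaling these were 1.44, which was called (limma adjusted p = 0.0208), and 0.78 (limma adjusted p = 0.237). Ccnd3, cyclin D3, lay between 2.00 and 5.76 in all 20 livers and was not called. Neither Cdk2, the partner of cyclin E, nor Ccne2 was called, with means of 1.18 and 0.704, and Ccne1 (mean 0.158) did not reach the testing level. Whether the D cyclins differed from one another in their response was not tested.

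**Figure D3:**
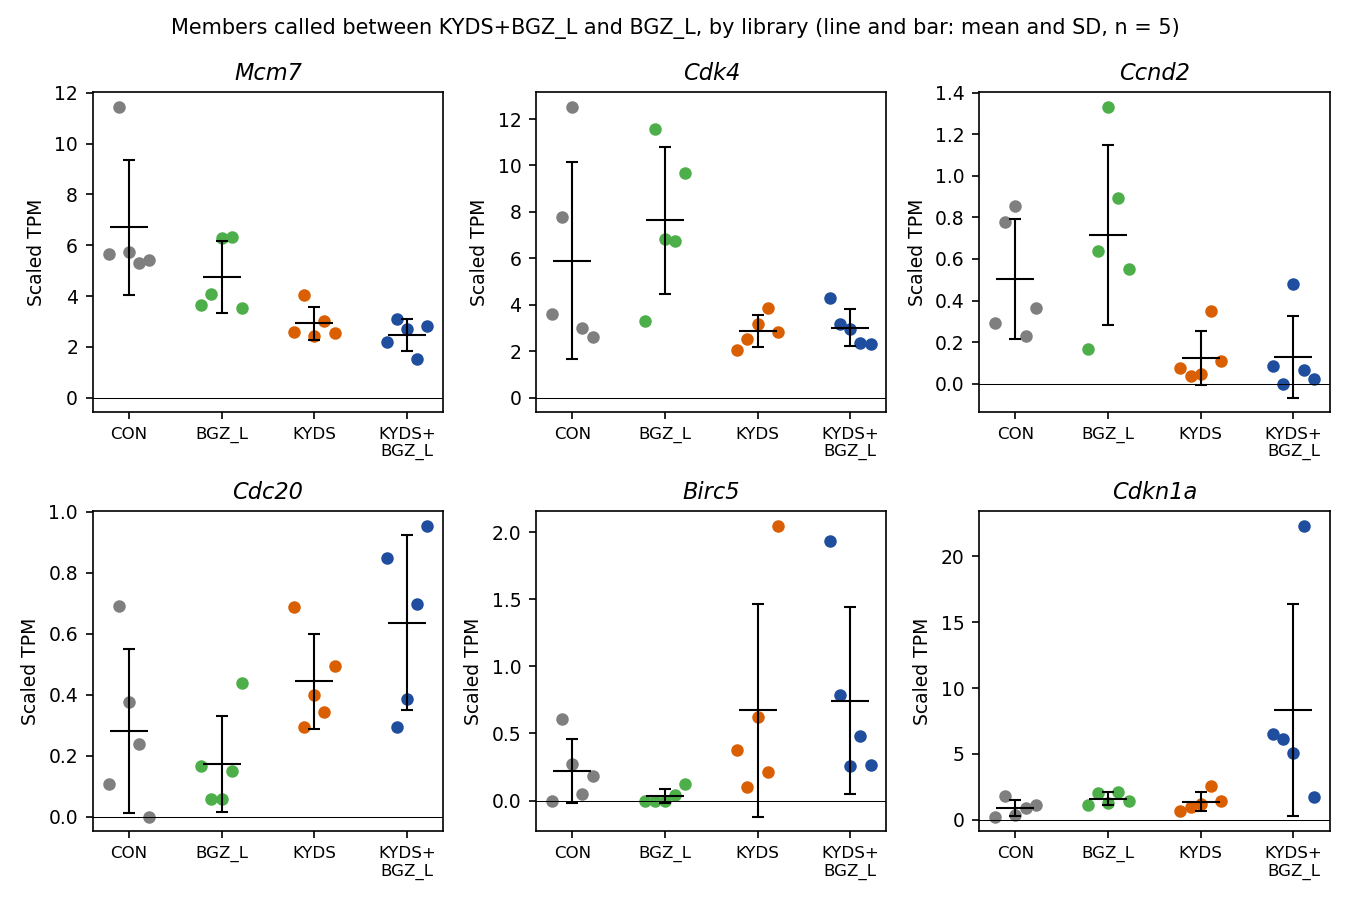
Scaled TPM by library and group for the 6 genes called in KYDS+BGZ_L against BGZ_L, with the group mean (line) and SD (bar), n = 5. Mcm7, Cdk4 and Ccnd2 lay lower and Cdc20, Birc5 and Cdkn1a higher in KYDS+BGZ_L than in BGZ_L livers; without scaling the log2 differences of Mcm7 and Cdk4 were -0.11 and -0.40, neither called.

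Cdkn1a, which encodes the CDK inhibitor p21, had its highest levels in rats given both agents. KYDS+BGZ_L livers held 6.54, 6.11, 5.05, 22.3 and 1.71 scaled TPM. BGZ_L livers held 1.09, 2.05, 1.30, 2.14 and 1.45, KYDS livers 0.671, 0.950, 1.19, 2.56 and 1.43, and CON livers 0.221, 1.81, 0.391, 0.887 and 1.14. In 4 of the 5 KYDS+BGZ_L livers Cdkn1a exceeded every liver of the other 3 groups, and KYDS+BGZ_L 5 lay among them. It rose by 1.69 ± 0.45 log2 in KYDS+BGZ_L against BGZ_L (limma adjusted p = 0.0155). This was the one member called after each of the 20 libraries was left out in turn, and the highest limma adjusted p, 0.0469, came without KYDS+BGZ_L 4. It was called with 8 of 9 other settings, the exception being TPM recomputed over nuclear genes (limma adjusted p = 0.0663).

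Against rats given hydrocortisone alone, Cdkn1a was not called. The log2 difference of KYDS+BGZ_L against KYDS was 1.92 ± 0.45 (unadjusted p = 3.87e-04, limma adjusted p = 0.135), and it was called in 1 of 20 fits that left out a library, the fit without KYDS+BGZ_L 5. In KYDS against CON the value was 0.46 ± 0.45 (limma adjusted p = 0.555) and in BGZ_L against CON 0.70 ± 0.45 (limma adjusted p = 0.855). These comparisons share libraries, so their values are set side by side. Without scaling, Cdkn1a in KYDS against CON was at 1.40 and called (limma adjusted p = 0.0247). The interaction, which asks whether hydrocortisone acted differently with and without BGZ_L, was 1.22 ± 0.64 (limma adjusted p = 0.999, 95% interval -0.11 to 2.55). Cdkn1b, which encodes the related inhibitor p27, lay between 0.935 and 4.64 scaled TPM and was not called in any of the 5 comparisons.

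The Cdkn1a promoter is shown because Cdkn1a was called. RefSeq (build GRCr8) places this entry at chr20:7150682-7150981 on the plus strand, and none of the 4 kinds of word was found in this window. Words of other factors were not searched, and which start of the gene these livers used is not known here.
Cdkn1a: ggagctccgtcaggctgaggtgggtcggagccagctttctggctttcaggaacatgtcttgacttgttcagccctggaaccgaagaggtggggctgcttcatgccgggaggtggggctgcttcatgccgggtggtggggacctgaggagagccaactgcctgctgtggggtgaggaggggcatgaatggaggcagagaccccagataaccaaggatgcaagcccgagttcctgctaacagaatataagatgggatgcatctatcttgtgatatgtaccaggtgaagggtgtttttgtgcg

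BGZ_L itself gave no calls among these genes. In KYDS+BGZ_L against KYDS, limma called 0 of 19 (background 0.126%, 1 of 19 at an unadjusted p under 0.05, which was Cdkn1a), and the log2 differences ran from -0.29 to 1.92. In BGZ_L against CON, limma called 0 of 19 (background 0%, 0 of 19 at an unadjusted p under 0.05), with log2 differences from -0.43 to 0.70. For the interaction, limma called 0 of 19 (background 0.0253%, 0 of 19 at an unadjusted p under 0.05), with values from -0.73 to 1.22. In the same order, 405, 715 and 447 of all 11869 genes tested had an unadjusted limma p under 0.05. Groups that do not overlap occurred in 0 of the 19 genes in KYDS+BGZ_L against KYDS (background 1.36%) and in 0 of 19 in BGZ_L against CON (background 0.607%). A p above the threshold does not show that the levels were equal.

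Within groups, most pairs of tested members had a low correlation. Over 171 pairs of the 19 genes, the median Pearson r of the deviations from group means was 0.03 across the 20 libraries, with 10 pairs above 0.5 and 6 below -0.5. The highest r was 0.62, between Rrm1 and Ccnd3, and the lowest was -0.75, between Mcm5 and Cdk4. These values share libraries and their scaling factors and are a description.

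Other genes of the same pathways were read from lists. Of 28 replication genes outside the set, 14 could be tested. Limma called 0 for KYDS against CON and 3 of 14 lower and 0 higher for KYDS+BGZ_L against BGZ_L. At an unadjusted limma p under 0.05 there were 1 and 6 of 14, beside 2856 and 3831 of all 11869 genes. Over all genes tested, 6.27% were called in the former comparison and 17.4% in the latter, where 8.55% were lower. A count of 3 does not set the list apart from them. Those 3 were Mcm10, a replication initiation factor (-1.52 ± 0.51, limma adjusted p = 0.0453), Pole, the catalytic subunit of polymerase epsilon (-1.22 ± 0.33, limma adjusted p = 0.017) and Rfc4, a subunit of the clamp loader (-0.99 ± 0.30, limma adjusted p = 0.0292). None of the 3 was called without scaling, at -1.12, -0.61 and -0.29, and with 1 library left out they were called in 10, 19 and 16 of 20 fits. Pole lay between 1.97 and 5.75 scaled TPM in BGZ_L livers and between 0.508 and 1.66 in KYDS+BGZ_L livers, with no overlap. Of 38 mitosis and cytokinesis genes outside the set, 7 could be tested. Limma called 0 in both hydrocortisone comparisons, beside 6.27% and 17.4% of all genes tested. An unadjusted limma p under 0.05 was found for 0 and 1 of the 7, beside 2856 and 3831 of all 11869 genes.

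Among 26 further G1 and S phase control genes, 17 could be tested and 1, Wee1, was called, lower in both hydrocortisone comparisons. Over all genes tested, 6.27% and 17.4% were called, 3.02% and 8.55% lower, so a count of 1 does not set the list apart. Wee1 encodes the kinase that holds CDK1 inactive. It stood at 3.47, 3.37, 6.96, 2.04 and 1.93 scaled TPM in CON livers and at 0.197, 0.497, 0.369, 0.656 and 0.416 in KYDS livers. In BGZ_L livers it stood at 2.35, 4.75, 6.05, 4.79 and 2.76 and in KYDS+BGZ_L livers at 0.341, 0.353, 0.322, 0.275 and 0.187. All 10 hydrocortisone livers lay below all 10 others. Wee1 fell by 2.02 ± 0.28 log2 in KYDS against CON (limma adjusted p = 6.18e-04) and by 2.48 ± 0.28 in KYDS+BGZ_L against BGZ_L (limma adjusted p = 3.56e-05). It stayed lower and called without scaling, at -1.18 and -1.92, and without each of the 20 libraries in turn. With a covariate for the ratio of nuclear over mitochondrial TPM, the limma adjusted p was 0.0602 for KYDS against CON.

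Of 16 target genes of p53, the factor known for inducing Cdkn1a, 14 could be tested. Limma called Eda2r higher for KYDS against CON (2.26 ± 0.67, limma adjusted p = 0.0497), 1 of 14, beside 6.27% of all genes tested. That call held with 3 of 9 other settings, and with the covariate for the ratio of nuclear over mitochondrial TPM the log2 difference was 0.78 (limma adjusted p = 0.905). For KYDS+BGZ_L against BGZ_L it called 2 of 14 higher and 0 lower, Gdf15 (2.19 ± 0.61, limma adjusted p = 0.0189) and Btg2 (0.78 ± 0.26, limma adjusted p = 0.0455), beside 17.4% of all genes. Neither count sets the list apart from all genes. Gdf15 and Btg2 were called with 7 and 4 of 9 other settings. With 1 library left out, Eda2r, Gdf15 and Btg2 were called in 5, 17 and 8 of 20 fits. Cdkn1a is not counted in this list. Gdf15 was listed at 0 in 2 of the 5 BGZ_L livers, where its highest value was 0.867, and lay between 1.60 and 4.87 in KYDS+BGZ_L livers.

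The means of 2 library measures lay apart between the hydrocortisone groups and their comparison groups, with no adjusted p below 0.05. The scaling factor was 0.774 ± 0.424 in CON, 0.785 ± 0.392 in BGZ_L, 1.72 ± 0.26 in KYDS and 1.29 ± 0.33 in KYDS+BGZ_L (SD, n = 5). Every KYDS library (1.31 to 2.01) lay above every CON library (0.231 to 1.26), while the ranges of KYDS+BGZ_L and BGZ_L overlapped. An exact two-sided permutation test gave p = 0.00794 for KYDS against CON, the smallest this design allows, and p = 0.0476 for KYDS+BGZ_L against BGZ_L. Adjusted over 8 tests of library measures these were 0.0635 and 0.127. A single result at the smallest p cannot adjust below 0.05 over 8 tests, so the adjusted p could not decide on KYDS against CON. The 13 mitochondrially encoded genes held 75.1% ± 10.2 of TPM in CON, 67.3% ± 17.3 in BGZ_L, 42.4% ± 18.0 in KYDS and 48.9% ± 17.7 in KYDS+BGZ_L (SD, n = 5). The same exact permutation test gave p = 0.0238 and p = 0.135 for these comparisons, or 0.0952 and 0.216 adjusted over the 8 tests. With a covariate for the log2 ratio of nuclear over mitochondrial TPM, limma called 0 members for KYDS against CON and 1, Cdkn1a (1.73, limma adjusted p = 0.049), for KYDS+BGZ_L against BGZ_L. With TPM recomputed over nuclear genes alone, limma called 0 members in either comparison. The log2 differences of the members called with scaling kept their direction there and were about as large or larger. Mcm7 was at -1.03 in KYDS against CON, and in KYDS+BGZ_L against BGZ_L Mcm7 was at -0.82, Cdk4 at -1.15, Ccnd2 at -1.64, Cdc20 at 1.15, Birc5 at 1.76 and Cdkn1a at 1.86, with limma adjusted p from 0.0538 to 0.348.

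Markers of liver cell types are given beside these results. The summed level of 8 hepatocyte markers ran from 5522 to 9302 scaled TPM in CON and 5326 to 6084 in BGZ_L. It ran from 6417 to 62628 in KYDS and 8887 to 44522 in KYDS+BGZ_L. Limma called 2 of 8 higher in KYDS against CON (Ttr and Tf), beside 6.27% of all genes tested. In KYDS+BGZ_L against BGZ_L it called 3 of 8 higher (Alb, Ttr and Serpina1), beside 17.4% of all genes. Log2 differences of the 8 ran from -0.14 to 2.39 and from -0.67 to 2.42 in these comparisons. Of 9 macrophage markers, 1, Cd163, was called higher in both comparisons. The median log2 difference of the 9 was 0.57 in KYDS against CON and -0.28 in KYDS+BGZ_L against BGZ_L, where Cd163 was at 1.36, so most of the list lay in the other direction there. Their summed level ran from 50.9 to 84.1 in CON, 55.3 to 686 in BGZ_L, 75.9 to 193 in KYDS and 55.8 to 197 in KYDS+BGZ_L. Of 6 neutrophil markers, 3 could be tested, and in KYDS+BGZ_L against BGZ_L S100a8 and S100a9 were called higher (1.96 and 1.90 log2) while the third lay at -0.86 and was not called. The summed level of the 6 ran from 0 to 21.1 in BGZ_L and 7.16 to 28.2 in KYDS+BGZ_L. No tested marker of erythroid, T and NK, B and plasma, endothelial, stellate or cholangiocyte cells was called in either comparison. The part of these cell types in the results was not tested.

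**Figure D4:**
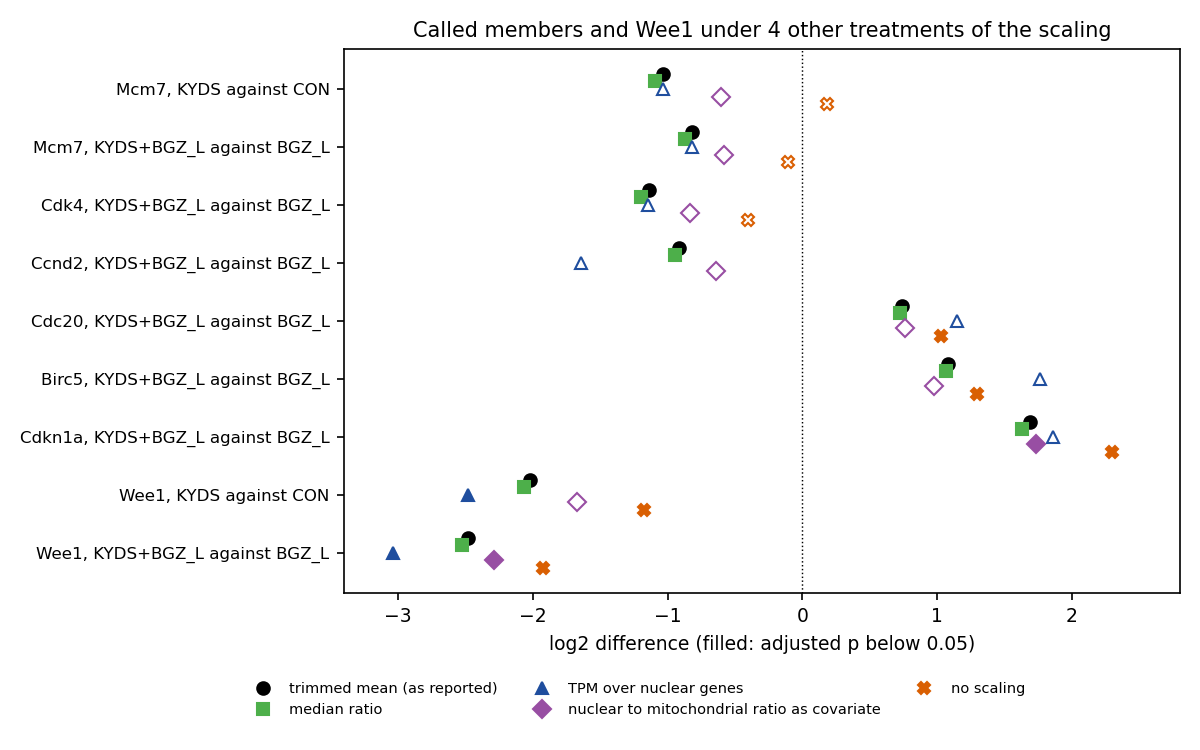
Log2 differences of the called genes and of Wee1 under the reported scaling and 4 other treatments of it, with filled symbols where the limma adjusted p was below 0.05. Cdkn1a stayed to the right and Wee1 to the left of 0 under all of them, and Mcm7 in KYDS against CON moved from -1.03 to 0.19 without scaling; Ccnd2 has no value without scaling.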

How the data were processed

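RNA of 20 rat livers was sequenced, and the groups and replicate numbers came from the sample labels. Although the table that the authors deposited bears a name for raw counts, its values have 2 decimals and sum to 914343 to 983962 per library, and they were read as TPM. Neither the authors' computation of TPM nor the aligner and counter is given in the sources used here. Per the labels, reads were sequenced in pairs and only the first read was analysed. The submitters' processing notes list the mouse builds GRCm38, mm10 and GRCm39, while the gene identifiers are rat Ensembl ones, so the build behind the values is not known.

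TPM was divided by a trimmed mean of log ratios (trimming 30% of ratios and 5% of levels from either end). Genes of at least 0.5 scaled TPM in at least 5 libraries, 11869 in all, entered as log2 of scaled TPM plus 0.5. Means of the 4 groups were fitted with limma 3.58.1 (trended, robust prior, 16 residual degrees of freedom) in R 4.3.3 with data.table (version 1.17.8), two-sided, with Benjamini-Hochberg adjustment over all genes within each of 5 comparisons. Such log2 differences understate those of low genes. Single library measures were compared by exact permutation tests. The fit was also run on simulated data, with scaling factors drawn without regard to group. That run cannot show how the fit does where scaling factors differ between groups. Figures used Python 3.11.15 and matplotlib 3.10.9. Promoters and overlapping genes came from RefSeq (GRCr8), where 34 members matched by symbol and 26 had a promoter entry.

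The members, gene lists and alternatives were chosen with earlier results of these data known. Values of every library are given for members that passed in a comparison, for the highest member of each role and for Mki67, Top2a, Cdk1, Pcna, Cdkn1a and Ccnd1; from the other lists, genes that passed are named. Rrm1, Wee1's single libraries and the E-box were singled out after the values or letters had been seen. Same-numbered libraries did not deviate together across groups (r above 0.1 in 7 of 30 pairs, from -0.46 to 0.33), so the replicate number was no block and was run as an alternative. Other scalings, a covariate, other added constants, no testing level and fits without each library were also run.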

Additional observations from a re-analysis of the deposited data

Results flagged for a closer look

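In 18 of 136 sets of 5 values (34 genes in 4 groups), the highest value lay far from the other 4 by Dixon's criterion. Chance meets this criterion in about 5% of sets only where values are normally distributed. Scaled TPM cannot be negative and was often low here, so that rate need not hold. Whether 18 sets exceed chance was not tested. All 18 were the highest of their group. Values are scaled TPM.

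Among genes of DNA synthesis, Mcm7 was 11.5 in CON 2, the library with the lowest scaling factor, where the unscaled value was 2.65. Mcm2 was 2.84 and Gins2 0.813 in BGZ_L 2. Mcm4 was 0.448 in CON 3 and 0.463 in BGZ_L 3. Cdc6 was 0.268 in BGZ_L 1 and 0.244 in KYDS 4. Rrm2 was 0.0868 in CON 3 and 0.0868 in KYDS 1.

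Among mitotic genes, Top2a was 8.85 in CON 3. Birc5 was 2.05 in KYDS 5, Cdc20 was 0.439 in BGZ_L 5, and Plk1 was 0.468 in KYDS+BGZ_L 3.

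Among G1 genes, Ccnd2 was 0.351 in KYDS 4 and 0.478 in KYDS+BGZ_L 3, Ccne1 was 0.788 in BGZ_L 4, and Ccne2 was 1.24 in KYDS 1. The inhibitor Cdkn1a was 22.3 in KYDS+BGZ_L 4.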

How the results depend on the processing

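Counts are given as members, then all genes, for KYDS against CON (1 and 744) and KYDS+BGZ_L against BGZ_L (6 and 2062). Without scaling they were 11 (all higher) and 5933 (5867 higher, 66 lower), and 3 and 2042. Recomputing TPM over nuclear genes, with no further scaling, gave 0 and 92 (75 higher, 17 lower) for the first comparison. For the second it gave 0 and 577 (358 higher, 219 lower). With no testing level they were 1 and 367, and 3 and 1626. With the nuclear to mitochondrial covariate they were 0 and 23, and 1 and 669. Without CON 2 and BGZ_L 3, whose scaling factors were the lowest, they were 0 and 256, and 2 (Mcm7 and Cdkn1a) and 1362. Leaving out 1 library at a time gave 0 to 1 members and 224 to 1075 genes, and 1 to 6 members and 1102 to 2517 genes. The 0 came without CON 2, KYDS 3 or KYDS 5, and the single member, Cdkn1a, remained without BGZ_L 3, BGZ_L 4 or KYDS+BGZ_L 4. Without KYDS+BGZ_L 1, BGZ_L 2 or KYDS+BGZ_L 5 the second comparison had 2, 3 and 3 members. For KYDS+BGZ_L against KYDS (0 and 15) all genes called were 4 without scaling, 6 over nuclear genes and 6 to 19 with a library left out, with 0 to 1 members. For the interaction (0 and 3) they were 0 without scaling, 0 over nuclear genes, 1 without CON 2 and BGZ_L 3 and 2 to 5 with a library left out. For BGZ_L against CON (0 and 0) they were 1 with the covariate, 1 without CON 2 and BGZ_L 3 and 0 to 3 with a library left out. Log2 differences changed sign as follows. Without scaling, those of Mcm7, Cdk4, Pcna and Tyms in KYDS against CON were 0.19, 0.48, 0.53 and 0.85, and those of Pcna and Tyms in KYDS+BGZ_L against BGZ_L were 0.62 and 0.059. In KYDS+BGZ_L against BGZ_L, Pcna was 0.0079 over nuclear genes and 0.063 without CON 2 and BGZ_L 3, and Mki67 was -0.0032 with median-ratio scaling and -0.015 without those libraries. With the covariate Ccnd1 was -0.070 and -0.14. With a library left out, the last comparison gave -0.10 to 0.13 for Mki67, -0.18 to 0.18 for Pcna and -0.011 to 0.18 for Ccnd1. The cause of these changes was not tested. With the replicate number as a block, members called were 1 and 4 (Cdc20 and Birc5 lost) and genes 557 and 1889; the numbers of the labels do not show a pairing. TPM keeps no depth, so whether low genes could differ at these depths cannot be read from the values.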
